A study of Homo sapiens with 16 samples.

Results

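The 36 genes described here encode enzymes and regulators of sterol and fatty acid metabolism. They were chosen by their known function, with earlier results of these data known, from the 60623 genes listed in each count table. Of them, 18 are enzymes of the mevalonate and sterol pathway, 11 serve the synthesis, elongation, desaturation and supply of fatty acids, 4 are regulators or carriers of sterols and 3 are targets of the liver X receptors (LXR). Enough counts for a test were present for 34 members. The sterol carrier *STARD4* had 0 to 7 counts and the malic enzyme *ME1* 0 to 14 counts in each library, so no fold change is given for either.

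The counts came from RNA-Seq of MUTZ-3, an AML cell line with inv(3), in which the relocated *GATA2* distal enhancer drives *EVI1* (listed as *MECOM*). In the PARPi experiment, 1 untreated library (0 h) and 9 libraries of cells kept for 12, 24 or 48 h with DMSO, with olaparib at 10 µM or with talazoparib at 1 µM were sequenced; olaparib and talazoparib are PARP inhibitors (PARPi), and DMSO is their solvent. The knockdown experiment had 6 libraries, of cells carrying a pLKO.1 vector with a non-targeting control shRNA (NTC) or with 1 of the *EVI1* shRNAs shEVI1-2531 and shEVI1-2532, at day 3 and day 6. Puromycin selection was used for the vectors, and all cells grew in medium with fetal bovine serum, GM-CSF and the supernatant of a bladder carcinoma line. No condition has a replicate (n = 1 library each), and a single cell line limits all comparisons. An effect is therefore tested against how far the time points or days depart from one another. The identity of shEVI1-2531 rests on its sample labels, since the name of its count table carries another number.

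Sterols and fatty acids are made from cytosolic acetyl-CoA. Their genes are controlled in common by the transcription factors SREBP1 and SREBP2, the products of *SREBF1* and *SREBF2*, which are held in the endoplasmic reticulum by *INSIG1* when sterols are plentiful and are released by proteolysis when sterols are scarce. LXR, activated by oxysterols, act in the opposite sense on sterol content by inducing cholesterol export through *ABCA1* and *ABCG1*, and also induce *SREBF1* and *SCD*. Proliferating leukemia cells use both pathways to build membranes.

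Depth ranged from 55999673 to 72681943 counts per library for PARPi and from 95523038 to 120716213 for the knockdown. Levels are given in CPM, counts scaled to a common library total after TMM, which was done separately in each experiment. Log2 ratios of single libraries carry a 95% confidence interval (CI) that covers counting error only. Levels of different genes can be compared only per kb of exon. Over the 5 DMSO and NTC libraries, the median level per kb ran from 0.0684 CPM per kb for the elongase *ELOVL6* to 56.5 CPM per kb for *ACLY* among the tested members. In bulk RNA, fewer expressing cells and less RNA per cell cannot be told apart.

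Summed markers of other cell states moved with both treatments, but not every marker followed its sum. In the change of the PARPi effect with time (slope), 9 of 10 monocyte and macrophage markers were called higher (10.4% of all genes tested). *CSF1R* was lower at 48 h, at 179 and 186 CPM with olaparib and talazoparib against 234 CPM with DMSO. With shEVI1-2531, 5 of 8 progenitor markers were called lower (7.9% of all genes tested) and *KIT* higher (0.71). The summed level of 10 monocyte and macrophage markers was 1101 to 1439 CPM in the DMSO libraries and reached 9930 CPM with olaparib and 16668 CPM with talazoparib at 48 h. Most of this sum came from *S100A9*, *LYZ* and *S100A8*, at 8131, 4115 and 3804 CPM with talazoparib at 48 h. At day 3 and day 6 the sum was 1533 and 1109 CPM with NTC, 3143 and 2539 CPM with shEVI1-2531, and 10051 and 10012 CPM with shEVI1-2532. *VCAN* was below NTC at day 3 with shEVI1-2531 and shEVI1-2532 (2.79 and 2.92 against 4.89 CPM) but above it at day 6. The summed level of 10 proliferation markers was 2046 to 2414 CPM with DMSO, 747 CPM with olaparib and 190 CPM with talazoparib at 48 h, and 416 to 493 CPM with shEVI1-2532 and 856 to 1075 CPM with shEVI1-2531 against 1574 and 1160.5 CPM with NTC. The 8 progenitor markers summed to 360 CPM with talazoparib against 835 CPM with DMSO at 48 h, and to 154 and 171 CPM with shEVI1-2532 against 573 and 900 CPM with NTC. The 7 epithelial markers, chosen because the supernatant came from an epithelial line, summed to 1.07 CPM with DMSO against 3.26 and 3.95 CPM with the inhibitors at 48 h, and to 1.62 and 0.98 CPM with NTC against 4.03 and 4.23 CPM with shEVI1-2532, with *KRT5* at 0 counts in all libraries. Of these markers, *UPK3A* was called higher in the slope (1.24) and with shEVI1-2532 (1.68). *KRT13*, which rested on 3 to 30 counts in the knockdown, was also called higher with shEVI1-2532 (2.80). The part of these cell states in the results below was not tested.

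*MECOM* itself fell in both knockdowns, with a log2 fold change of -1.34 (SE 0.19, adjusted p = 0.000644) for shEVI1-2531 and -3.04 (SE 0.21, adjusted p = 7.95e-07) for shEVI1-2532. The reduction differed between the shRNAs by -1.70 on the log2 scale (SE 0.20, adjusted p = 0.000138). Its log2 ratio to DMSO at 48 h was -1.40 with olaparib and -2.62 with talazoparib.

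Over all members, the change with PARPi built up over time. At 12 h, the median log2 ratio of the 34 tested members to DMSO was -0.05 with olaparib and -0.004 with talazoparib. At 48 h it was -0.49 and -0.55, with 28 and 26 members below 0, while the median of all 17218 genes tested was 0.003 and 0.007. The mean effect of both inhibitors over the 3 time points had a median of -0.25 over the members against -0.01 over all genes. By the edgeR quasi-likelihood test, 3 members rose in this mean effect (*ABCA1*, *ABCG1* and *INSIG1*), where 2.93% of all genes tested were called higher. In the same test 0 members fell, where 1.06% were called lower, and 13 members were lower at an unadjusted p under 0.05. DESeq2 called 8 members lower, but it called 3474 of all genes in either direction against 687 in the edgeR test. This count depended on single time points, as did the count over all genes. Without the 24 h libraries 0 of all genes were called, and so 0 members (7 at an unadjusted p under 0.05). Without the 12 h libraries 3768 of all genes were called, 13 of them members, 10 of these lower.

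The change of the inhibitor effect with time was fitted as a slope per doubling of hours. Here 11 members fell with time, against 9.4% of all genes tested called in this direction, and 2 members rose, against 10.4%. The 11 were 6 of 10 tested fatty acid genes (*SCD*, *FADS2*, *FADS1*, *ACACA*, *ELOVL6* and *LPIN1*), 3 of 18 sterol enzymes (*ACAT2*, *MVK* and *LSS*) and both *SREBF* genes. *INSIG1* and *ABCA1* rose. The median slope was -0.21 over the members and -0.001 over all genes. This fit has 2 residual degrees of freedom and took the spread of each gene wholly from genes of like abundance, so its SEs are nearly equal between genes.

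**Figure D1:**
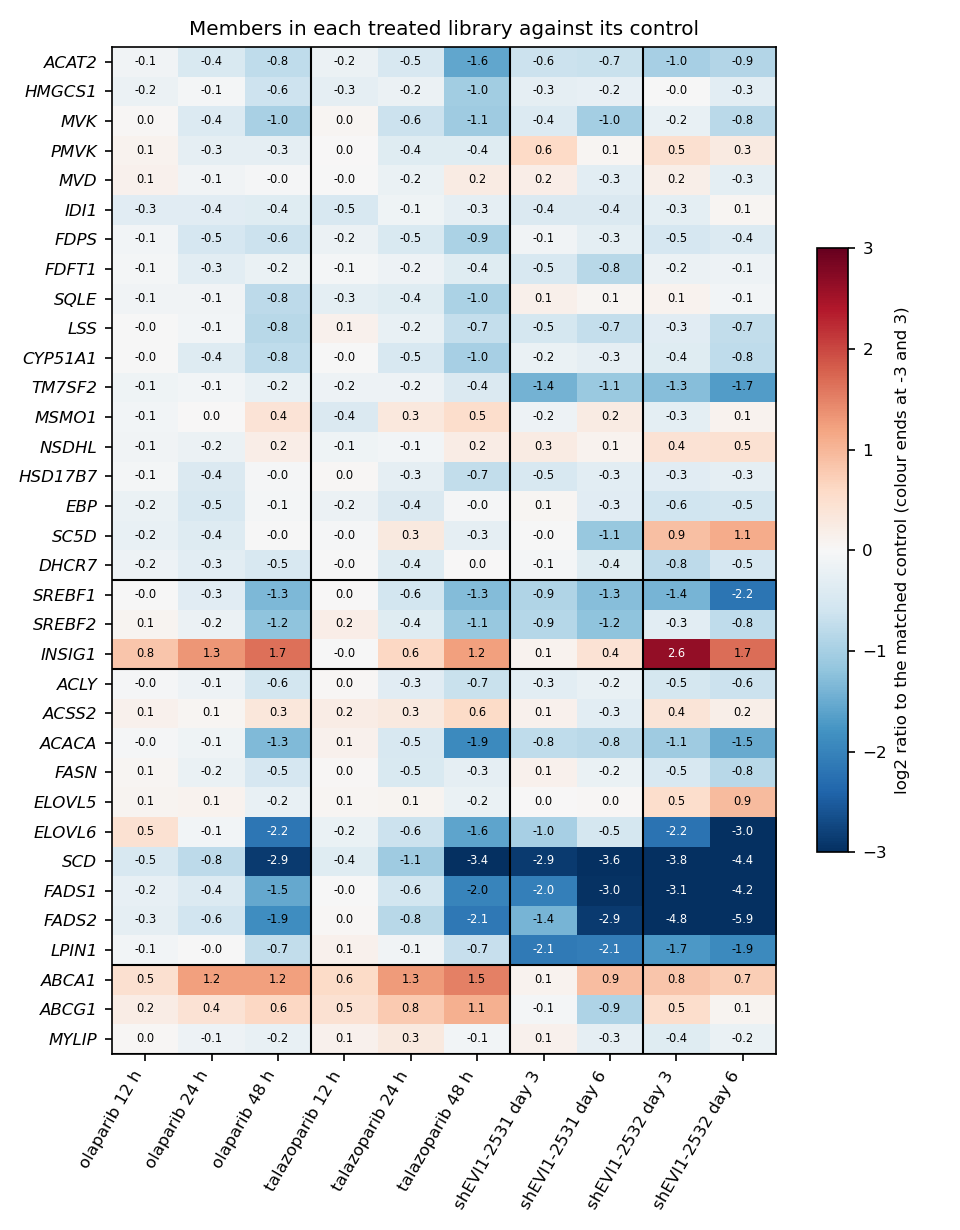
Log2 ratio of each of the 34 tested members (rows, in blocks of sterol enzymes, regulators, fatty acid genes and LXR targets) to its matched control in 10 treated libraries (columns), where blue is lower and red higher than DMSO of the same hour or NTC of the same day. *SCD*, *FADS1* and *FADS2* are at -1.54 or lower at 48 h of PARPi, and *INSIG1* is above 0 in 9 of 10 libraries.

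*SREBF1* and *SREBF2* encode the precursors of SREBP1 and SREBP2. *SREBF1* was at 76.1, 88.1 and 125 CPM with DMSO at 12, 24 and 48 h. With olaparib it was at 75.0, 69.9 and 49.2 CPM and with talazoparib at 76.5, 59.6 and 50.6 CPM. The libraries were alike at 12 h and separated as DMSO went up and both inhibitors went down. Its slope was -0.66 (SE 0.13, adjusted p = 1.02e-05). *SREBF2* behaved alike, with 111, 110 and 149 CPM for DMSO, 116, 97.0 and 65.0 CPM for olaparib and 128, 85.8 and 67.9 CPM for talazoparib, and a slope of -0.65 (SE 0.13, adjusted p = 1.14e-05). In the knockdown, *SREBF1* was at 83.1 and 172 CPM with NTC at day 3 and day 6. It was at 44.6 and 70.7 CPM with shEVI1-2531 and at 31.7 and 37.6 CPM with shEVI1-2532. All 4 shRNA libraries lay below both NTC libraries, which themselves differed by a log2 ratio of 1.05 between the days. Log2 fold changes were -1.10 (SE 0.17, adjusted p = 0.00118) for shEVI1-2531 and -1.79 (SE 0.18, adjusted p = 1.11e-05) for shEVI1-2532. *SREBF2* was at 121 and 221 CPM with NTC, 67.1 and 95.8 CPM with shEVI1-2531 and 97.3 and 130 CPM with shEVI1-2532. Here the order of the shRNAs was the opposite, and the difference, 0.49 (SE 0.14, adjusted p = 0.0261), was called. *SREBF1* overlaps *RAI1* on the other strand, and whether strand was used in counting is not given in the sources used here.

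*INSIG1*, which retains the SREBP precursors in the endoplasmic reticulum and is itself an SREBP target, was higher with PARPi. It was at 78.4, 68.1 and 105 CPM with DMSO, 139, 169 and 331 CPM with olaparib, and 77.3, 105 and 247 CPM with talazoparib at 12, 24 and 48 h. Olaparib libraries were above DMSO at each time point, whereas talazoparib at 12 h was not (log2 ratio -0.02, 95% CI -0.07 to 0.03, against 0.83, 95% CI 0.78 to 0.88, for olaparib). The difference between the inhibitors was not tested. The mean effect was 0.92 (SE 0.19, adjusted p = 0.0435) and the slope 0.52 (SE 0.13, adjusted p = 0.0008). Without the 24 h libraries the mean effect was not called, in a fit that called 0 of all genes. The untreated library, at 235 CPM, lay above all DMSO libraries. In the knockdown, *INSIG1* was at 128 and 108 CPM with NTC, 138 and 146 CPM with shEVI1-2531 and 791 and 347 CPM with shEVI1-2532. The rise passed the test with shEVI1-2532 (log2 fold change 2.20, SE 0.24, adjusted p = 1.9e-05) but not with shEVI1-2531 (0.29, SE 0.22, adjusted p = 0.416). The difference between the shRNAs, 1.91 (SE 0.23, adjusted p = 0.000183), was called.

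The promoters of *SREBF2*, *INSIG1*, *SCD* and the sterol oxidase *MSMO1* are shown as examples. In the PARPi slope these members fell (*SREBF2*, *SCD*), rose (*INSIG1*) or were not called (*MSMO1*). Each sequence holds a motif marked below. Those of *SREBF1* (225 bases) and *ACACA* (250 bases), which also fell, hold 0 such motifs and are not shown. The sequences are from RefSeq (GRCh38.p14), all on the plus strand, and end before the gene start in RefSeq and GENCODE. Capitals mark the sterol response element of the form TCACNCCAC, at which SREBPs bind, and the CCAAT box, read as ATTGG on the other strand, at which NF-Y binds. They cover chr22:41832855-41833078 for *SREBF2*, chr7:155297628-155297775 for *INSIG1*, chr10:100346983-100347232 for *SCD* and chr4:165327419-165327666 for *MSMO1*.
SREBF2: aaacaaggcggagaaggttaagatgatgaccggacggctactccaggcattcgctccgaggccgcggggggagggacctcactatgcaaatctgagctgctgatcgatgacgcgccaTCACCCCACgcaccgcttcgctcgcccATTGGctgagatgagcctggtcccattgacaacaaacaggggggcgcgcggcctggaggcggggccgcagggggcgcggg
INSIG1: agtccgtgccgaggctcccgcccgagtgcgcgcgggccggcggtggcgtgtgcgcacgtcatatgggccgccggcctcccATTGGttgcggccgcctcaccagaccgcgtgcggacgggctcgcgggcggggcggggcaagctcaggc
SCD: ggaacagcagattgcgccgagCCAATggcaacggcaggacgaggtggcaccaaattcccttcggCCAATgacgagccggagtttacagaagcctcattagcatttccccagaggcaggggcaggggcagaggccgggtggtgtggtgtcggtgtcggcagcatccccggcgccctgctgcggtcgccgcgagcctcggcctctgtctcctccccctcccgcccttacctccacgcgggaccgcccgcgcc
MSMO1: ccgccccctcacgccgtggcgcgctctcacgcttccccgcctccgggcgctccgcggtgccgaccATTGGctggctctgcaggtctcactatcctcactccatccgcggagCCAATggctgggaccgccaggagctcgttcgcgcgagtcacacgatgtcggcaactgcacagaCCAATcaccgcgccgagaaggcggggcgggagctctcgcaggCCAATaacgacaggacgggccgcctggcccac
In *SREBF2*, 1 sterol response element and 1 CCAAT box lie near each other, whereas the *INSIG1*, *SCD* and *MSMO1* sequences hold 1, 2 and 4 CCAAT boxes and no TCACNCCAC. A promoter of 250 bases before to 50 after the start was found for 31 members. TCACNCCAC, searched on both strands, was present in 1 of them (3.23%, against 1.15% of 27305 promoters). CCAAT was present in 20 (64.5%, against 35.7%) and the E-box CACGTG in 5 (16.1%, against 7.43%). The LXR element DR4, a pair of AGGTCA with 4 bases between, was found in 0 members and in 0.0183% of all promoters. A match describes the letters in this window only.

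**Figure D2:**
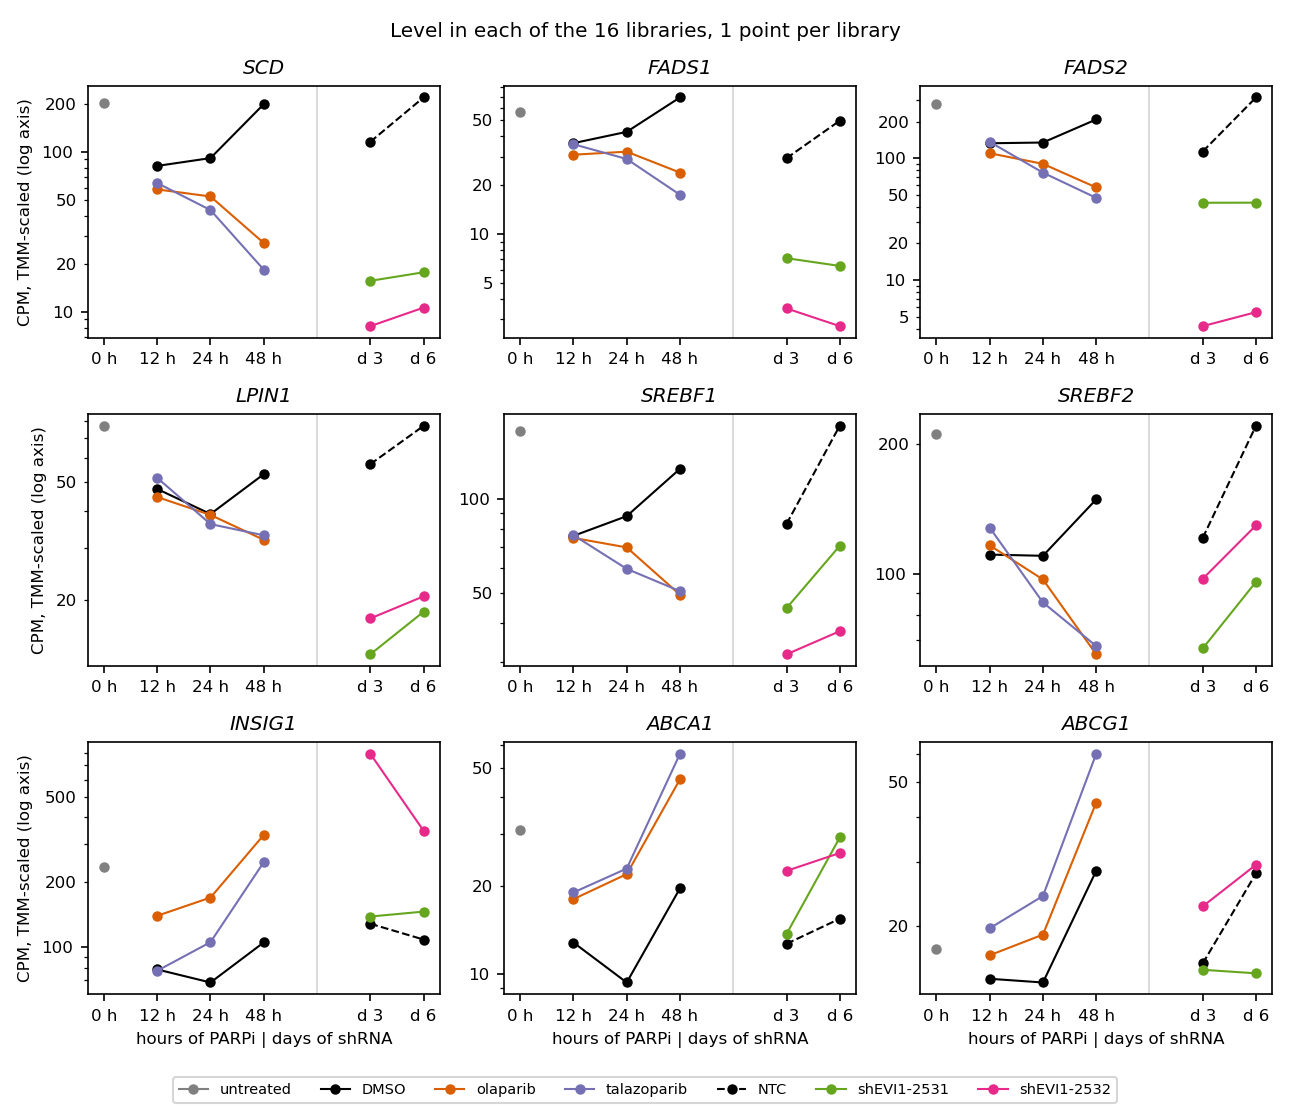
Level in CPM (log axis) of 9 members in each of the 16 libraries, with hours of PARPi to the left of the grey line and days of shRNA to the right; each point is 1 library and lines join a treatment over time. *SCD* at 48 h is at 27.0 and 18.4 CPM with the inhibitors against 199 CPM with DMSO, and *INSIG1* reaches 791 CPM with shEVI1-2532.

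Among fatty acid genes, *SCD* had the lowest ratios at 48 h. *SCD*, the stearoyl-CoA desaturase that makes monounsaturated fatty acids, was at 81.9, 91.6 and 199 CPM with DMSO. It was at 58.4, 52.8 and 27.0 CPM with olaparib and at 64.0, 43.4 and 18.4 CPM with talazoparib. Both inhibitors were below DMSO at each time point, and the gap widened from both sides. At 48 h the ratio was 13.6% of DMSO with olaparib and 9.26% with talazoparib. Set against DMSO at 12 h instead, *SCD* at 48 h was at 33.0% and 22.5%, so that part of the ratio at 48 h rests on the rise of the control. The slope of -1.37 (SE 0.13, adjusted p = 1.29e-22) had the smallest p of the members. The mean effect was -1.63 (SE 0.45) and was not called (adjusted p = 0.0604).

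*FADS1* and *FADS2*, the neighbouring desaturases of polyunsaturated fatty acids, followed the same course. *FADS2* was at 133, 135 and 208 CPM with DMSO, 110, 89.9 and 57.6 CPM with olaparib and 136, 76.2 and 47.3 CPM with talazoparib. *FADS1* was at 36.3, 42.6 and 69.3 CPM with DMSO, 30.8, 32.2 and 23.9 CPM with olaparib and 35.7, 28.99 and 17.5 CPM with talazoparib. At 12 h talazoparib libraries did not differ from DMSO beyond counting error for either gene, with log2 ratios of 0.04 (95% CI -0.003 to 0.08) for *FADS2* and -0.02 (95% CI -0.10 to 0.06) for *FADS1*. Slopes were -0.94 (SE 0.13, adjusted p = 4.03e-11) for *FADS2* and -0.82 (SE 0.13, adjusted p = 2.14e-08) for *FADS1*. The 2 genes overlap each other on opposite strands and *FADS2* also overlaps *FEN1*, so reads in the overlaps may be shared or lost.

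*ACACA*, the acetyl-CoA carboxylase that makes malonyl-CoA, was at 105, 90.9 and 93.7 CPM with DMSO, 103, 83.1 and 37.5 CPM with olaparib and 115, 65.0 and 24.9 CPM with talazoparib. Its control was near level, so at 48 h it was also at 35.7% and 23.7% of DMSO at 12 h. The slope was -0.83 (SE 0.13, adjusted p = 6.79e-09). *FASN*, the fatty acid synthase that uses malonyl-CoA, took another course. It was at 352, 282 and 204 CPM with DMSO, 367, 247 and 143 CPM with olaparib and 361, 204 and 170 CPM with talazoparib. Here the control itself went down with time, and the slope of -0.22 (SE 0.13, adjusted p = 0.256) was not called. *LPIN1*, a phosphatidate phosphatase, was at 47.2, 38.9 and 53.0 CPM with DMSO, 44.4, 38.6 and 31.9 CPM with olaparib and 51.5, 36.02 and 33.0 CPM with talazoparib, with a slope of -0.36 (SE 0.13, adjusted p = 0.0326). *ELOVL5*, an elongase of polyunsaturated fatty acids, stayed between 63.1 and 73.4 CPM in the 9 libraries (slope -0.14, SE 0.13, adjusted p = 0.517). *ELOVL6*, which elongates saturated fatty acids, rested on 9 to 51 counts. The suppliers of acetyl-CoA diverged: *ACLY*, which cleaves citrate, had log2 ratios of -0.56 and -0.66 at 48 h, and *ACSS2*, which activates acetate, of 0.35 and 0.56. Neither was called in the mean effect or the slope. The median of the 10 tested fatty acid genes at 48 h was -1.03 with olaparib and -1.13 with talazoparib.

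The sterol enzymes were lower to a smaller degree. Their median log2 ratio was -0.32 with olaparib and -0.40 with talazoparib at 48 h, with 16 and 14 of 18 below 0. Of all genes tested, 49.9% and 49.8% were below 0. *ACAT2*, which joins acetyl-CoA units, had a slope of -0.51 (SE 0.13, adjusted p = 0.00118), *MVK*, the mevalonate kinase, of -0.53 (SE 0.15, adjusted p = 0.00355) and *LSS*, which closes the sterol ring, of -0.41 (SE 0.14, adjusted p = 0.0162). *ACAT2* overlaps *TCP1*, and *MVK* overlaps *MMAB*. *HMGCS1*, *SQLE* and *CYP51A1*, other steps of the pathway, had log2 ratios of -1.04, -0.96 and -1.002 with talazoparib at 48 h but were not called (adjusted p = 0.0893, 0.0514 and 0.0868 for the slope). Not every enzyme was lower. *MSMO1* was at 14.3 CPM with DMSO, 18.9 CPM with olaparib and 20.6 CPM with talazoparib at 48 h (slope 0.36, SE 0.14, adjusted p = 0.051), and *NSDHL*, which acts beside it in removing methyl groups, was at 33.1, 38.1 and 38.9 CPM. For the other sterol enzymes the log2 ratios at 48 h lay between -0.94 (*FDPS*, talazoparib) and 0.24 (*MVD*, talazoparib).

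**Figure D3:**
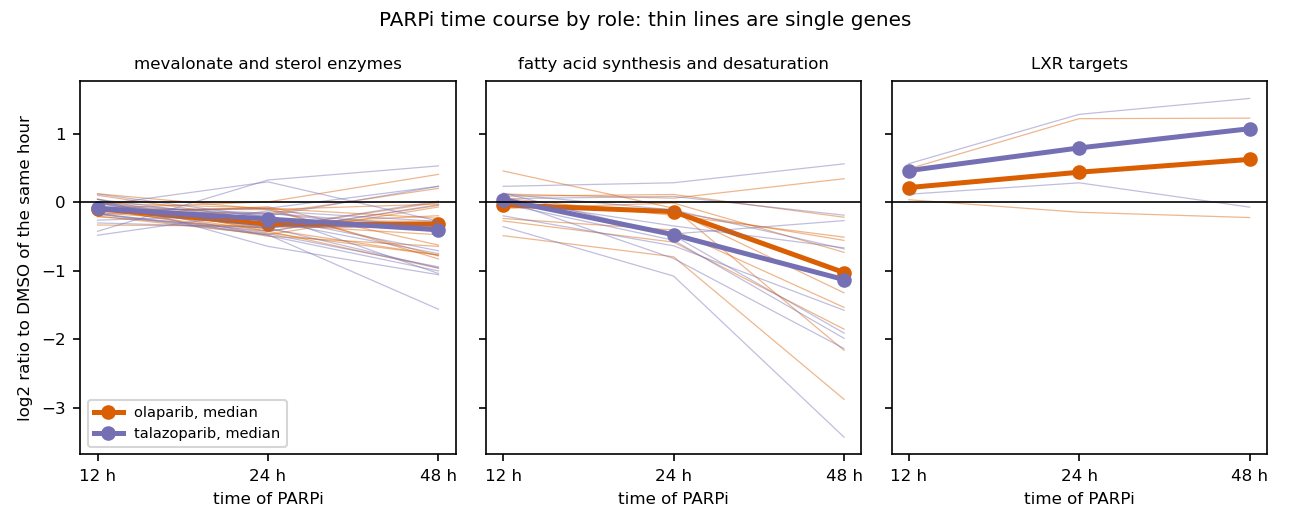
Log2 ratio to DMSO of the same hour (vertical axis) at 12, 24 and 48 h for the sterol enzymes, the fatty acid genes and the LXR targets, where thin lines are single genes and thick lines with points are medians. The median of fatty acid genes reaches -1.03 and -1.13 at 48 h, that of sterol enzymes -0.32 and -0.40, and that of LXR targets 0.63 and 1.08, with *MYLIP* below 0 at 48 h.

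The LXR targets *ABCA1* and *ABCG1*, both exporters of cholesterol, rose with PARPi. *ABCA1* was at 12.8, 9.36 and 19.6 CPM with DMSO, 18.0, 21.9 and 45.9 CPM with olaparib and 18.9, 22.8 and 56.1 CPM with talazoparib. It was above DMSO in 6 of 6 libraries, and the mean effect was 1.04 (SE 0.17, adjusted p = 0.0299). *ABCG1* was at 14.3, 13.96 and 28.5 CPM with DMSO, 16.6, 18.9 and 44.0 CPM with olaparib and 19.7, 24.2 and 59.98 CPM with talazoparib, with a mean effect of 0.60 (SE 0.12, adjusted p = 0.0423) and all 6 libraries above DMSO. Neither was called without the 24 h libraries, in a fit that called 0 of all genes. *MYLIP*, a ubiquitin ligase induced by LXR, was at 7.03, 7.73 and 12.5 CPM with DMSO, 7.22, 6.99 and 10.7 CPM with olaparib and 7.63, 9.41 and 11.9 CPM with talazoparib, with a mean effect of 0.00 (SE 0.11, adjusted p = 0.998). The LXR targets are themselves expressed in monocytes, whose summed markers rose in the same libraries as *ABCA1* and *ABCG1*, but a link was not tested. Among 11 tested further genes of LXR, its partners and targets, 3 rose with time and 0 fell, against 10.4% and 9.4% of all genes tested. Their median slope was -0.08. Those that rose included the receptor genes *RXRA* and *NR1H2*, with slopes of 0.53 and 0.46 (SE 0.13 each).

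The controls changed over the same hours. From untreated cells to 12 h of DMSO, 24 of 34 members were lower, against 49.3% of all genes tested. Among these members were *INSIG1* (log2 ratio -1.58), *SCD* (-1.30), *SREBF1* (-1.12), *FADS2* (-1.06) and *SREBF2* (-0.93). From 12 to 48 h of DMSO, 24 of 34 members were higher, while 49.0% of all genes tested were lower. *SCD* was at 1.28, *ABCG1* at 0.99, *SREBF1* at 0.71 and *FADS2* at 0.65, while *FASN* was at -0.79. *SCD* thus stood at 201 CPM in untreated cells and at 199 CPM after 48 h of DMSO. These pairs of single libraries have no test.

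In the knockdown, the members with the lowest fold changes were again fatty acid genes. For shEVI1-2532, 16 members were called lower, where 19.9% of all genes tested were, and 5 were called higher, where 21.2% were. The lower members were 8 of 10 fatty acid genes, 6 of 18 sterol enzymes and both *SREBF* genes. For shEVI1-2531, 12 members were called lower (7.9% of all genes tested) and 0 higher (9.49%). Of these 12, 5 were fatty acid genes, 5 were sterol enzymes and 2 were the *SREBF* genes. At an unadjusted p under 0.05, 1 member was higher. DESeq2 also called 0 higher, whereas the fit without a filter on low counts called 1 higher. A call of higher also appeared when either shEVI1-2531 library was left out, which leaves 1 library in that group. Medians were -0.49 for shEVI1-2532 and -0.33 for shEVI1-2531, against -0.0003 and 0.007 over all genes. Without the NTC library of day 6, the count for shEVI1-2531 was 6. Scaled to the library total only, 2 members were called higher and 23 lower for shEVI1-2532. That scaling shifts the median of all genes by -0.17 to -0.35 in the knockdown and by -0.19 and -0.28 at 48 h of PARPi.

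*SCD* was at 116 and 219 CPM with NTC at day 3 and day 6. It was at 15.7 and 17.7 CPM with shEVI1-2531 and at 8.18 and 10.7 CPM with shEVI1-2532. The groups did not overlap, and the log2 fold changes were -3.26 (SE 0.19, adjusted p = 1.9e-06) and -4.11 (SE 0.19, adjusted p = 1.29e-07). *FADS1* was at 29.3 and 49.9 CPM with NTC, 7.11 and 6.37 CPM with shEVI1-2531 and 3.49 and 2.72 CPM with shEVI1-2532, with log2 fold changes of -2.54 (SE 0.25) and -3.65 (SE 0.27). *FADS2* was at 114 and 315 CPM with NTC, 43.1 and 43.2 CPM with shEVI1-2531 and 4.19 and 5.45 CPM with shEVI1-2532. It had the lowest log2 fold change of the members with shEVI1-2532, -5.37 (SE 0.31, adjusted p = 2.82e-07), against -2.16 (SE 0.27, adjusted p = 0.000238) with shEVI1-2531. At day 6 with shEVI1-2532, *FADS2* was at 1.73% of NTC.

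*LPIN1* was at 57.2 and 76.9 CPM with NTC, 13.2 and 18.3 CPM with shEVI1-2531 and 17.4 and 20.6 CPM with shEVI1-2532. Its log2 fold changes of -2.09 (SE 0.16, adjusted p = 1.17e-05) and -1.81 (SE 0.16, adjusted p = 4.49e-06) did not pass a test of their difference (0.29, SE 0.16, adjusted p = 0.209). *ACACA* was at 56.0 and 83.5 CPM with NTC, 33.0 and 47.6 CPM with shEVI1-2531 and 26.8 and 29.2 CPM with shEVI1-2532, and fell with both. *FASN* was at 196 and 430 CPM with NTC, 213 and 372 CPM with shEVI1-2531 and 140 and 242 CPM with shEVI1-2532. It fell with shEVI1-2532 (-0.66, SE 0.13, adjusted p = 0.00203) and had -0.05 (SE 0.13, adjusted p = 0.855) with shEVI1-2531. *ELOVL5* went the other way, with 50.3 and 44.1 CPM for NTC, 50.8 and 44.9 CPM for shEVI1-2531 and 73.1 and 84.8 CPM for shEVI1-2532 (0.75, SE 0.15, adjusted p = 0.00179).

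Of the sterol enzymes, *TM7SF2*, *ACAT2* and *LSS* fell with both shRNAs. *TM7SF2*, a sterol reductase, had the lowest log2 fold changes, -1.26 (SE 0.28, adjusted p = 0.00835) with shEVI1-2531 and -1.47 (SE 0.28, adjusted p = 0.00131) with shEVI1-2532, from levels of 2.37 and 2.82 CPM with NTC, and it overlaps *VPS51*. *DHCR7*, *EBP* and *FDPS* were called lower with shEVI1-2532 alone, and *FDFT1* and *MVK* with shEVI1-2531 alone. Of these 5, a difference between the shRNAs was called for *FDFT1* (0.49, SE 0.14, adjusted p = 0.0226). *NSDHL* and *SC5D*, a late desaturase of the sterol ring, rose with shEVI1-2532, by 0.45 (SE 0.15, adjusted p = 0.0285) and 1.02 (SE 0.36, adjusted p = 0.0392) on the log2 scale. *SQLE* and *HMGCS1*, which were lower at 48 h of PARPi, had log2 fold changes of 0.01 (SE 0.15) and -0.17 (SE 0.17) with shEVI1-2532. The median over the 18 enzymes lay between -0.18 and -0.32 in the 4 shRNA libraries.

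*ABCA1* was at 12.7 and 15.4 CPM with NTC, 13.7 and 29.1 CPM with shEVI1-2531 and 22.4 and 25.8 CPM with shEVI1-2532. It rose with shEVI1-2532 (0.79, SE 0.22, adjusted p = 0.0117), and was not called with shEVI1-2531 (0.54, SE 0.22, adjusted p = 0.109). *ABCG1* was at 15.8 and 28.0 CPM with NTC, 15.1 and 14.8 CPM with shEVI1-2531 and 22.7 and 29.6 CPM with shEVI1-2532. Both shEVI1-2531 libraries lay below both NTC libraries, while those of shEVI1-2532 overlapped NTC. No call was made for either shRNA, and their difference was called (0.78, SE 0.20, adjusted p = 0.0162). *MYLIP* was at 8.87 and 10.3 CPM with NTC, 9.64 and 8.54 CPM with shEVI1-2531 and 6.84 and 8.98 CPM with shEVI1-2532, with no call.

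When both shRNAs were taken as 1 group, so that their difference entered the error, 3 members were called lower (0.806% of all genes tested) and 0 higher (0.849%). The 3 were *LPIN1* (-1.94, SE 0.18, adjusted p = 0.0155), *SCD* (-3.62, SE 0.34, adjusted p = 0.0155) and *FADS1* (-2.99, SE 0.44, adjusted p = 0.042). *FADS2*, at -3.04 (SE 1.02, adjusted p = 0.147), was not called. Of the members, 1 was higher at an unadjusted p under 0.05. DESeq2 called 0 higher, whereas the fit without a filter on low counts called 1 higher. Leaving out the day 3 or the day 6 NTC library leaves 1, so such a fit cannot decide whether the 3 calls hold. Without shEVI1-2531 at day 3 the count was 5, with 702 of all genes called against 308.

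The direct comparison of the shRNAs called 13 members. For 7 the value was lower with shEVI1-2532 (12% of all genes tested), 6 of them fatty acid genes (*FADS2*, *SCD*, *FASN*, *FADS1*, *ELOVL6* and *ACACA*) and the last *SREBF1*. For 6 it was higher (12.2%), namely *INSIG1*, *ELOVL5*, *SC5D*, *ABCG1*, *FDFT1* and *SREBF2*. The difference was -3.21 (SE 0.28, adjusted p = 2.46e-05) for *FADS2*, -1.12 (SE 0.25) for *FADS1* and -0.84 (SE 0.18) for *SCD*. Without shEVI1-2532 at day 6 the count was 7, and scaled to the library total only it was 4 higher and 10 lower.

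**Figure D4:**
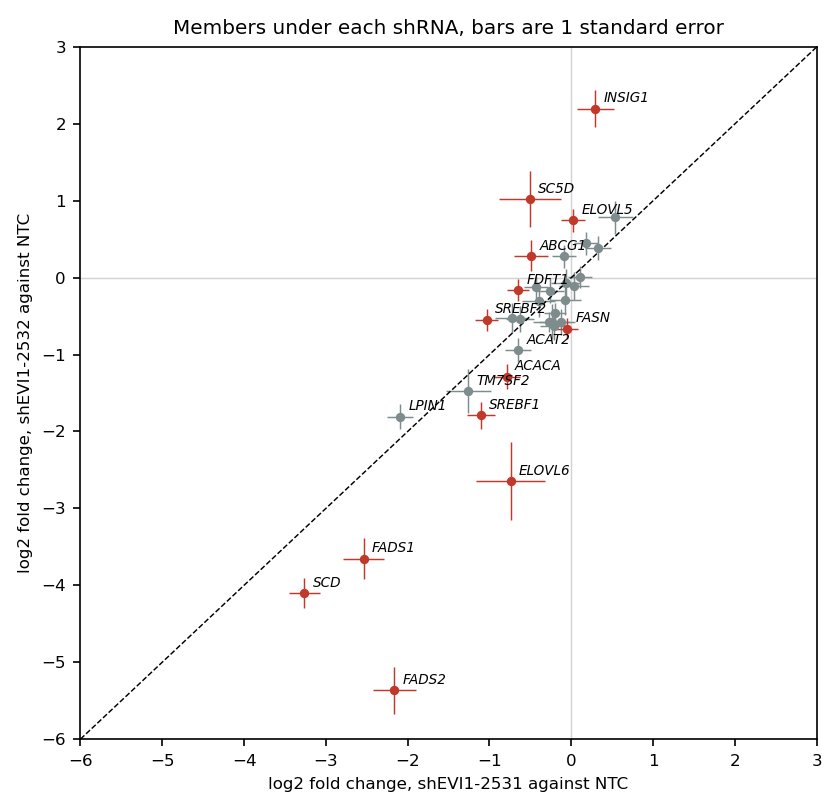
Log2 fold change against NTC of the 34 tested members for shEVI1-2531 (horizontal axis) and shEVI1-2532 (vertical axis), with bars of 1 SE; red marks the 13 members whose shRNAs differ at an adjusted p under 0.05 and the dashed line marks equal effects. *FADS2* lies farthest below the line (-2.16 and -5.37) and *INSIG1* farthest above it (0.29 and 2.20).

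NTC cells also changed between day 3 and day 6, with 22 of 34 members higher at day 6, while 50.5% of all genes tested were lower. The log2 ratio was 1.47 for *FADS2*, 1.13 for *FASN*, 1.05 for *SREBF1*, 0.92 for *SCD* and -1.05 for *MSMO1*. The shRNA libraries of *SCD*, *FADS1* and *FADS2* stayed near level between the days, so the ratio to NTC grew. *FADS2*, for example, was at -4.76 at day 3 and -5.85 at day 6 with shEVI1-2532.

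Side by side, *SCD*, *FADS1*, *FADS2*, *ACACA*, *LPIN1*, *SREBF1*, *SREBF2*, *ACAT2* and *LSS* were called lower in the PARPi slope and with both shRNAs. The share of all genes called lower in all of these fits was not counted. Taken singly, the shares were 9.4% in the slope, 19.9% with shEVI1-2532 and 7.9% with shEVI1-2531. In the mean PARPi effect 0 members were called lower. With both shRNAs as 1 group, only *LPIN1*, *SCD* and *FADS1* were. *INSIG1* and *ABCA1* were called higher in the PARPi slope and with shEVI1-2532. *SQLE*, *HMGCS1* and *CYP51A1* were called in none of the 6 fits. Comparisons within an experiment share their control libraries.

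Lists of further genes of the same pathways were counted in the same fits. They are read against the shares of all genes called lower and higher, 9.4% and 10.4% in the slope, 19.9% and 21.2% with shEVI1-2532 and 7.9% and 9.49% with shEVI1-2531. Of 22 genes of the SREBP machinery and further sterol genes, 4 of 20 tested fell and 2 rose in the PARPi slope, and 4 of 21 tested fell and 5 rose with shEVI1-2532, the latter near the shares of all genes. *TMEM97*, an SREBP target, had a slope of -0.66 (SE 0.13, adjusted p = 1.23e-05), and *NPC2*, which carries cholesterol out of lysosomes, rose in the slope and with both shRNAs (1.27, SE 0.15, with shEVI1-2532). *AACS*, which makes acetoacetyl-CoA in the cytosol, rose in the mean effect (0.68, SE 0.15) and with shEVI1-2532 (1.45, SE 0.16). Of 27 other genes of fatty acid synthesis and activation, 23 were tested, of which 5 fell and 2 rose in the slope, and 3 fell and 8 rose with shEVI1-2532. Of the acyl-CoA synthetases, those called higher in both included *ACSL1* (slope 0.44, SE 0.13; shEVI1-2532 2.05, SE 0.15) and *ACSL4* (0.43, SE 0.13; 1.28, SE 0.17), while *ACSL5*, named after its values were seen, was called lower in the slope (-0.41). With shEVI1-2531, 4 of these 23 fell and 3 rose, and 2 of the 21 sterol genes rose. Of 12 LXR genes, 11 were tested, of which 4 fell and 2 rose with shEVI1-2532, and 3 fell and 3 rose with shEVI1-2531. With shEVI1-2532, *SMPDL3A* (3.62, SE 0.52) and *NR1H2* (0.87, SE 0.14) rose, and *NR1H3* fell (-1.03, SE 0.19).

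Of 26 genes of fatty acid oxidation and lipid storage, 20 were tested, and 5 rose and 1 fell in the slope, 10 rose and 4 fell with shEVI1-2532, and 5 rose and 1 fell with shEVI1-2531. *PLIN2*, which coats lipid droplets, had a slope of 1.04 (SE 0.14, adjusted p = 2.01e-12) and log2 fold changes of 1.96 (SE 0.18) with shEVI1-2532 and 1.56 (SE 0.18) with shEVI1-2531. *CD36*, a fatty acid importer, had a slope of 0.94 (SE 0.13), and *DGAT2*, which makes triglycerides, a slope of 0.85 (SE 0.14) and a log2 fold change of 2.59 (SE 0.17) with shEVI1-2532. *CD36* is also a monocyte gene, and the summed monocyte markers rose in the same libraries, but a link was not tested. *CPT1A*, which admits fatty acids to the mitochondrion for oxidation and is named after its values were seen, fell with both shRNAs (-1.53 with shEVI1-2532 and -0.81 with shEVI1-2531). The median log2 fold change of this list was 0.54 with shEVI1-2532 and 0.29 with shEVI1-2531.

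Within the members, the ratios over the 10 treated libraries were not uniform. The Pearson correlation with the median ratio of the sterol enzymes was 0.85 for *FDPS*, 0.84 for *MVK*, 0.83 for *CYP51A1* and 0.82 for *ACAT2*, each of which is part of that median. It was 0.77 for *ACACA*, 0.72 for *SREBF2* and 0.67 for *SCD*, and negative for *INSIG1* (-0.56), *ABCA1* (-0.73), *MSMO1* (-0.69) and *NSDHL* (-0.48). Among 9112 genes outside the members, the most alike were *HSD17B8* (0.93), *WDR54* (0.91), *CREB3L4* (0.90), *MMAB* (0.89) and *AP4M1* (0.89). The 10 points share 5 control libraries, and *MMAB* overlaps *MVK*, so these values are a description only.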

How the data were processed

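RNA-Seq of MUTZ-3 cells (GRCh38/hg38) was analysed in 16 libraries. The deposited tables hold raw counts per gene and library, made by the authors, for which the submitters' processing notes name STAR, Picard and featureCounts; versions, and whether strand was used in counting, are not given in the sources used here, although the library kit keeps strand. The deposited TPM, scaled over whole gene spans, were not used. Depth was 55999673 to 120716213 counts, and 3 counts of a total correspond to 0.0249 to 0.0536 CPM.

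Genes reaching 10 counts in 3 or more of 9 PARPi libraries (17218) or 2 or more of 6 knockdown libraries (18606) were scaled with TMM and fitted with the edgeR 4.0.16 quasi-likelihood test. The PARPi model held the hour as a factor and 1 coefficient per inhibitor (4 residual degrees of freedom), or in addition a slope of each inhibitor on log2 hours (2). The untreated library entered no test. The knockdown models held the day and 1 coefficient per shRNA (2) or both shRNAs as 1 group (3). P-values were adjusted after Benjamini-Hochberg over all genes tested, with a threshold of 0.05. Single-library log2 ratios used a prior count of 0.5 and Clopper-Pearson intervals. Alternatives included DESeq2 1.42.0, other scalings, filters and left-out libraries. The fits were tested on simulated data.

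The members and lists were chosen with earlier results of these data known. Named with every value were members called in any of the 6 fits, up to 5 per fit by smallest p, and the regulators and LXR targets; from each further list, at most 3 genes per fit were named, with exceptions stated. No promoter from chromosome 8 was shown. Some genes of the further lists are not reported here.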

Additional observations from a re-analysis of the deposited data

Results flagged for a closer look

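The following differences within the same contrast passed their own test, with no cause tested. The effect of shEVI1-2532 minus that of shEVI1-2531 on the log2 scale was -3.21 for *FADS2*, -1.90 for *ELOVL6*, -1.12 for *FADS1*, -0.84 for *SCD*, -0.69 for *SREBF1*, -0.61 for *FASN* and -0.50 for *ACACA*. It was 1.91 for *INSIG1*, 1.53 for *SC5D*, 0.78 for *ABCG1*, 0.73 for *ELOVL5* and 0.49 for both *FDFT1* and *SREBF2*. *MECOM* differed by -1.70 in the same test.

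The PARPi effect changed with each doubling of time by -1.37 for *SCD*, -1.004 for *ELOVL6*, -0.94 for *FADS2*, -0.83 for *ACACA*, -0.82 for *FADS1*, -0.66 for *SREBF1*, -0.65 for *SREBF2*, -0.53 for *MVK*, -0.51 for *ACAT2*, -0.41 for *LSS* and -0.36 for *LPIN1*. It changed by 0.52 for *INSIG1* and 0.42 for *ABCA1*.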

How the results depend on the processing

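Counts of called members are given per comparison. For the mean PARPi effect (3 members, 687 of all genes), DESeq2 gave 11 (3474 of all genes) and no filter on low counts 12 (3745). A log2 fold change beyond 1 gave 1 (369 of all genes). A model without the hour gave 0 (16 of all genes), with 8 members at an unadjusted p under 0.05. Leaving out an hour gave 0 to 13 (0 to 3768 of all genes). For shEVI1-2532 (21), a log2 fold change beyond 1 left 10, and leaving out a library gave 15 to 24. For shEVI1-2531 (12), these were 7 and 6 to 13. For both shRNAs as 1 group (3, with 308 of all genes), DESeq2 gave 9 (2463 of all genes) and no filter 10 (2728). Leaving out an shRNA library gave 2 to 5 (62 to 702 of all genes). Leaving out an NTC library left 1 in that group, so no count is given, and such a fit cannot decide whether the 3 calls hold. The ranges given here for the single shRNAs and for their difference also come from fits with 1 library left in a group. For the difference of the shRNAs (13), a log2 fold change beyond 1 left 5 and leaving out a library gave 7 to 13. The slope (13) stayed at 12 to 17 in 5 alternatives; leaving out an hour was not run, as it leaves no residual degrees of freedom. No direction reversed in any alternative run. Of 633 values of called members under alternatives, 558 stayed on their side of the threshold and 75 did not. Of 20 medians under the other scalings, 6 moved, all under scaling to the library total. The hour or day in the models pairs each treated library with its control; the fit for both shRNAs without the day gave 4. No paired analysis was possible because no replicate numbers exist within a condition. With no replicates, p-values measure departures between time points or days. ELOVL6, SC5D and TM7SF2 rest on few counts.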
